A study of Homo sapiens with 24 samples.

Results

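The p53 target genes described here are 37 well-known direct targets of the transcription factor p53. They were chosen by name for their textbook roles in cell cycle arrest, DNA repair, cell death, metabolism and secretion. Their values in these libraries were not used for the choice, but earlier results of these data were known when it was made. Each of the 37 symbols was matched to 1 of the 58676 gene identifiers of the deposited counts. HSJD-DIPG-007 is an established diffuse midline glioma (DMG) cell line grown as spheroids. Every library came from this 1 line, labelled H3F3A K27M, ACVR1 R206H and PIK3CA MIS. The cells received either vehicle or LLY-283, an inhibitor of the arginine methyltransferase PRMT5, at a concentration that limits growth in part, and the medium with a further dose was replaced after day 5. RNA was sequenced in 24 libraries, with 3 per treatment on each of days 0 and 5, 2 per treatment on day 7 and 1 per treatment on days 1, 2, 3 and 10. Days are days of treatment, so the libraries labelled LLY-283 at day 0 had 0 days of the drug. The study describes the libraries of a group as technical repeats, so the p-values measure the spread between these libraries, which may be smaller than that between independent cultures.

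p53 is a stress-activated transcription factor that binds short repeated elements near its target genes and switches them on. Its targets slow the cell cycle, repair DNA, limit metabolic damage or start cell death, and the p21 protein encoded by CDKN1A in turn leads to lower expression of genes for mitosis. The protein is held low by MDM2, itself a p53 target, and by MDM4. PRMT5 methylates splicing factors and histones, among other proteins, and MDM4 is among the transcripts whose splicing is known to depend on it.

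Totals per library lay between 13835205 and 23190369 counts. Levels are given as CPM, counts per 1000000 after TMM scaling of the 24 libraries, and treatment differences as log2 fold changes of LLY-283 over vehicle from edgeR's quasi-likelihood test, with a call at an adjusted p under 0.01. The glioma markers OLIG2, SOX2, PDGFRA, NES, VIM and CSPG4 were expressed in every library, and SOX10 was at most 0.603 CPM. At day 7 the library labelled LLY-283 replicate 2 lay with the vehicle libraries of day 5 over the genes called there, and that labelled vehicle replicate 2 lay between the treatments, so day 7 is given by label and kept apart. FN1 lay at 26.0 CPM or above in 3 libraries (LLY-283 day 2, vehicle day 5 replicate 3 and vehicle day 7 replicate 1) and at 8.19 CPM or below in the other 21. In bulk RNA, a change in the number of cells that express a gene and a change in the RNA per cell cannot be told apart.

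PMAIP1 and TP53INP1 were too low in these cells to pass the filter on low counts. They were tested only where no filter was used, and neither was called at day 5. PMAIP1, which encodes the death protein NOXA, had 0 to 4 counts per library. TP53INP1, an autophagy and death regulator, had 0 to 9. The other 35 members passed the filter on low counts in each comparison, and each had at least 13 counts in every day 5 library.

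Sequence near the starts of the members was searched for the p53 consensus element, 2 adjoining 10-base repeats with at most 1 mismatch in the whole and none in the central C and G of a repeat. The element is its own reverse complement in pattern, so both strands were covered, and the window ran 5000 bases to each side of the GENCODE canonical start on hg38. At least 1 match was found for 8 of 37 members, or 21.6%, against 1.1% of 16389 genes tested at day 5. The members are known p53 targets, so a higher share than in other genes is a property of how they were chosen. The 8 members were CCNG1, DDB2, EDA2R, GADD45A, PLK2, PTCHD4, RRM2B and ZMAT3. Over all genes, a match was found for 1.77% of those called higher at day 5 and 1.08% of those called lower, and no link between matches and response was tested. The 7 sequences that follow show what these elements look like, on the strand of the gene and with the 4 central bases of each repeat in capitals.
CCNG1: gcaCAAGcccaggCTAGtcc
DDB2: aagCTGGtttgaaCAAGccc
EDA2R: gaaCATGcctggaCGTGtcc
GADD45A: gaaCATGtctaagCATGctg
PLK2: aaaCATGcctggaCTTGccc
PTCHD4: aggCTTGcccagaCTTGccc
ZMAT3: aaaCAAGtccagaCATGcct
The PLK2, PTCHD4 and ZMAT3 elements had 0 mismatches and the other 4 had 1. The CCNG1 element (chr5:163437926-163437945, plus strand) was intronic, 340 bases after the start. The DDB2 element (chr11:47214969-47214988, plus strand) crossed the start itself, with 15 of its 20 bases in the first exon, in the 5′ UTR. The EDA2R element (chrX:66638713-66638732, minus strand) was intronic, 355 bases after the start. The GADD45A element (chr1:67686775-67686794, plus strand) was also intronic, 1583 bases after the start. The PLK2 element (chr5:58462274-58462293, minus strand) lay upstream of the gene, at -2198 bases. The PTCHD4 element (chr6:48111198-48111217, minus strand) ended directly before the start, with its centre at -11 bases. The ZMAT3 element (chr3:179070188-179070207, minus strand) was intronic, 1611 bases after the start. A match in letters is a description of the sequence and not evidence that p53 was bound there in these cells.

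At day 5 the p53 target genes stood higher in LLY-283 than in vehicle across every role. Of 35 tested members 24 rose, or 68.6%, where 12% of the 16491 genes tested were called higher. For day 5, rose and fell mean called higher or lower in LLY-283 than in vehicle. Changes over time are given as from day 0 to day 5, and some members that rose in this sense were lower than at day 0. No member was called lower by edgeR or DESeq2, where 14.1% of all genes were called lower. No member was lower at an unadjusted p under 0.05, which 44.4% of all genes passed in either direction. The median log2 fold change was 0.32 over the members and 0.02 over all genes tested. Above 0 were 33 of 35 members and 52.9% of all genes. In 28 of 35 members, 80%, all 3 LLY-283 libraries lay above all 3 vehicle libraries, which 20.8% of all genes tested did. DESeq2 called 22 members higher. With the day 7 libraries in the fit, which adds their spread by label for every gene, 9 remained past the threshold. The 12% above is that of the main edgeR fit, and the shares of all genes called in these other fits are not given here.

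**Figure D1:**
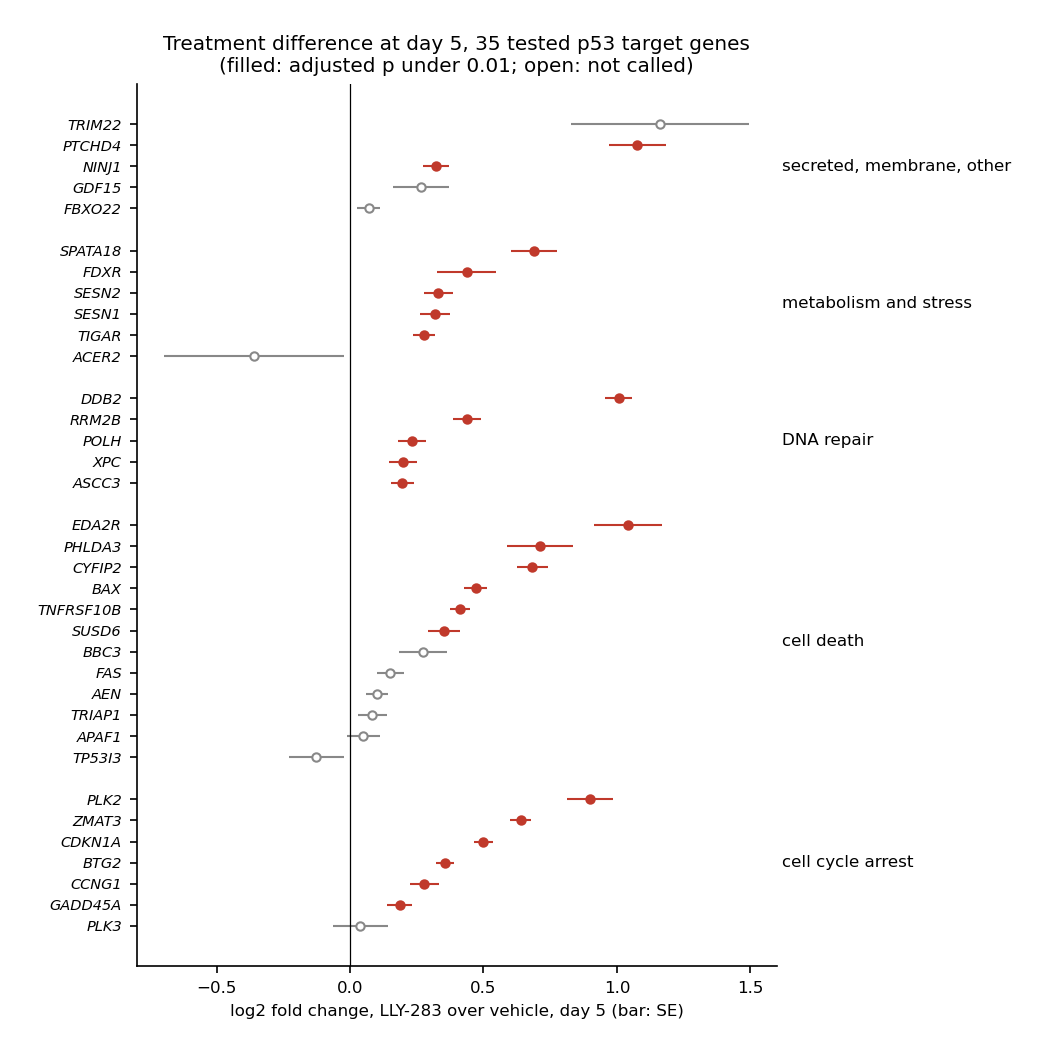
Log2 fold change of LLY-283 over vehicle at day 5 for the 35 tested p53 target genes, grouped by role, where points are edgeR estimates from 3 libraries per treatment, bars are 1 SE, and filled points are called at an adjusted p under 0.01. The 24 filled points all lie above 0, from GADD45A at 0.19 to PTCHD4 at 1.08.

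Among the 7 arrest genes, 6 rose at day 5 and PLK3 stood at 0.04. CDKN1A encodes the cyclin-dependent kinase inhibitor p21. Its level at day 5 was 240.1, 231 and 221 CPM in the LLY-283 libraries and 164, 166 and 168 CPM in the vehicle libraries. The groups did not overlap, with 230.4 ± 9.77 CPM against 166 ± 2.11 CPM (SD, n = 3 each), and the log2 fold change was 0.50 ± 0.04 (SE; edgeR adjusted p = 2.41e-11). CDKN1A was among the members that lost their call with the day 7 libraries in the fit, at an adjusted p of 0.0547.

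ZMAT3, an RNA-binding zinc finger protein that restrains growth downstream of p53, was at 195, 195 and 180.4 CPM in LLY-283 and 120.1, 123 and 129.7 CPM in vehicle at day 5. All LLY-283 libraries were above all vehicle libraries, by 0.64 ± 0.04 on the log2 scale (edgeR adjusted p = 9.64e-13). PLK2, a polo-like kinase that acts at S phase and centriole duplication, lay at 22.8, 24.6 and 20.6 CPM in LLY-283 and at 11.99, 11.7 and 13.4 CPM in vehicle, a log2 fold change of 0.90 ± 0.09 (edgeR adjusted p = 3.55e-09). BTG2, an antiproliferative cofactor of mRNA deadenylation, was at 346, 338 and 332 CPM in LLY-283. In vehicle the BTG2 values were 269, 269.9 and 269 CPM, so the gap of 0.36 ± 0.03 on the log2 scale was wide beside the spread of either group (edgeR adjusted p = 2.68e-09). CCNG1, the atypical cyclin G1, rose by 0.28. GADD45A, a stress sensor that inhibits CDK1, rose by 0.19 at day 5, but it was as far apart at day 0, by 0.19, and the difference between the days was -0.03 (edgeR adjusted p = 0.80). It lost its day 5 call in 5 alternatives, DESeq2 among them.

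Among the 14 genes of cell death, 12 were tested and 6 rose, among them the receptors TNFRSF10B and EDA2R. BAX, the effector that permeabilises the outer mitochondrial membrane, was at 97.2, 98.3 and 91.9 CPM in LLY-283 and 69.6, 72.9 and 68.4 CPM in vehicle. The BAX groups did not overlap, with a log2 fold change of 0.47 ± 0.04 (edgeR adjusted p = 1.76e-09). TNFRSF10B, the TRAIL receptor DR5, was at 147, 151 and 141 CPM against 111, 113 and 112 CPM, a rise of 0.41 ± 0.04 (edgeR adjusted p = 2.12e-09). CYFIP2, a subunit of the actin-regulating WAVE complex, was at 50.0, 57.3 and 51.2 CPM against 34.2, 33.1 and 33.2 CPM, a rise of 0.68 ± 0.06 (edgeR adjusted p = 5.28e-10). In these 3 genes the vehicle libraries were tightly grouped and every LLY-283 library lay above them.

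EDA2R, a TNF receptor family member that binds ectodysplasin A2, rose by 1.04 from a low level, with 11.4, 12.7 and 11.2 CPM in LLY-283 and 5.03, 5.32 and 7.24 CPM in vehicle. PHLDA3, which opposes AKT at the membrane, rose by 0.71, and SUSD6, a transmembrane protein, by 0.35. Death genes that were not called were BBC3 (the BH3-only protein PUMA, 0.27), FAS (0.15), AEN (an apoptosis-enhancing nuclease, 0.10), TRIAP1 (an inhibitor of apoptosis, 0.08), APAF1 (the core of the apoptosome, 0.05) and TP53I3 (a quinone oxidoreductase, -0.13). FAS, the death receptor for FAS ligand, was at 53.3, 51.9 and 51.8 CPM in LLY-283 and 45.8, 48.2 and 50.0 CPM in vehicle. The FAS groups did not overlap, but the difference of 0.15 ± 0.05 missed the threshold (edgeR adjusted p = 0.019). TP53I3 was at 11.3, 9.31 and 11.5 CPM in LLY-283 and 12.3, 11.96 and 11.4 CPM in vehicle, and these overlapped.

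All 5 repair genes rose at day 5. DDB2, the damage-binding subunit that recognises UV lesions for nucleotide excision repair, had the smallest p of all members. It was at 88.4, 97.7 and 91.3 CPM in LLY-283 and at 45.8, 48.8 and 45.9 CPM in vehicle. The 92.4 ± 4.76 CPM of LLY-283 was thus 1.97 times the 46.8 ± 1.71 CPM of vehicle (SD, n = 3 each), at a log2 fold change of 1.01 ± 0.05 (edgeR adjusted p = 1.38e-14), and it stayed called in every alternative tried for day 5. RRM2B, the p53-inducible subunit of ribonucleotide reductase, rose by 0.44. POLH, the translesion polymerase eta, rose by 0.23, and XPC, the sensor of global-genome excision repair, by 0.20. XPC lost its call in 6 alternatives, the most of any member called, and POLH and ASCC3 in 2 each. ASCC3, a helicase of alkylation repair and of stalled ribosomes, was at 106, 104 and 98.2 CPM against 94.1, 86.5 and 93.3 CPM and rose by 0.20 ± 0.04 (edgeR adjusted p = 0.00058).

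Of the 6 metabolic and stress genes 5 rose. SPATA18, which acts in mitochondrial quality control, rose by 0.69, SESN2 and SESN1, the leucine- and stress-responsive sestrins that restrain mTORC1, by 0.33 and 0.32, and TIGAR, a fructose bisphosphatase that lowers glycolysis, by 0.28. FDXR, the ferredoxin reductase of mitochondrial iron-sulfur cluster and steroid synthesis, was at 11.3, 12.5 and 11.4 CPM in LLY-283 and 7.52, 9.66 and 9.31 CPM in vehicle. It rose by 0.44 ± 0.11 (edgeR adjusted p = 0.0026) and lost its call in 4 alternatives, namely DESeq2, without vehicle replicate 1, without LLY-283 replicate 2 and with the day 7 libraries in the fit. ACER2, an alkaline ceramidase of the Golgi, was the exception: it was at 0.758, 0.684 and 0.950 CPM in LLY-283 and 0.994, 1.18 and 0.960 CPM in vehicle. At 13 to 37 counts per library over the 24 libraries, its difference of -0.36 ± 0.34 was not called (edgeR adjusted p = 0.436), although the 3 LLY-283 libraries lay below the 3 vehicle libraries.

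Of the 5 secreted, membrane and other genes 2 rose. PTCHD4, a patched-domain membrane protein, was at 21.5, 16.7 and 16.4 CPM in LLY-283 and 9.57, 8.61 and 7.98 CPM in vehicle, a rise of 1.08 ± 0.11 (edgeR adjusted p = 9.15e-09). NINJ1, which ruptures the plasma membrane in lytic death, rose by 0.32. TRIM22, an antiviral ubiquitin ligase, had the highest estimate of any member, 1.16 ± 0.33, on 17 to 101 counts per library. Its LLY-283 values of 2.80, 5.31 and 3.00 CPM lay above the vehicle values of 1.43, 1.12 and 2.59 CPM, but replicate 2 stood apart in LLY-283 and the adjusted p was 0.0163 with edgeR and 0.00489 with DESeq2. GDF15, a secreted stress cytokine, stood at 0.26 and FBXO22, an F-box ubiquitin ligase subunit, at 0.07, and neither was called. FAS, BBC3, PHLDA3, TIGAR, PTCHD4 and TRIM22 share exon sequence on their own strand with another annotated gene, and 14 members, CDKN1A among them, overlap an exon of the opposite strand, so reads could be split or shared between such genes.

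The first calls among the members came at day 3. At day 0, 0 of 35 were called by edgeR or DESeq2, 1 was higher and 3 were lower at an unadjusted p under 0.05, and the median was 0.01. Of 17780 genes tested at day 0, 0.0169% were called higher and 0% lower, and 5.69% had an unadjusted p under 0.05 in either direction. For days 1, 2 and 3, with 1 library per treatment, a fit over the 18 libraries of days 0 to 5 took the spread from days 0 and 5. On day 1, 0 of 35 members and 0% of the 20642 genes tested were called in either direction, and DESeq2 called 0 members. At an unadjusted p under 0.05, 0 members were higher and 2 lower, where 6.83% of all genes passed in either direction. On day 2, 0 members were called by either tool, where 0.00484% of genes were called in each direction. At an unadjusted p under 0.05, 2 members were higher, where 8.82% of all genes passed in either direction. The medians of the members on these days were -0.00 and 0.02.

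The median on day 3 was 0.14 over the members against 0.03 over all genes. Above 0 were 27 of 35 members and 53.04% of all genes. At an unadjusted p under 0.05, 12 members were higher and 1 lower, where 23.4% of all genes passed in either direction. DDB2, APAF1 and BTG2 were called higher and 0 members lower, where 2.72% of genes were called higher and 2.65% lower. DDB2 was at 60.2 CPM in LLY-283 and 36.3 CPM in vehicle, a log2 fold change of 0.77 ± 0.10 (edgeR adjusted p = 4.4e-06). BTG2 was at 260.2 CPM against 208 CPM, or 0.36 ± 0.06 (edgeR adjusted p = 0.000134), already the size it had at day 5. APAF1 was at 26.7 CPM against 19.5 CPM, or 0.49 ± 0.11 (edgeR adjusted p = 0.00282), but DESeq2 did not call it (adjusted p = 0.0306) and at day 5 it stood at 27.9 CPM in LLY-283 and 27.4 CPM in vehicle. With the day 7 libraries in the fit, 0 members were called at day 3, and the share of all genes in that fit is not given here.

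CDKN1A was at 146 CPM in LLY-283 and 149 CPM in vehicle on day 3, and its fitted difference, scaled over 18 libraries rather than 24, was 0.01 ± 0.07 (edgeR adjusted p = 0.975). PLK2 was at 6.99 and 6.67 CPM, and BAX at 56.4 and 60.0 CPM, both also without a call. ZMAT3 was at 115 CPM against 101 CPM, TNFRSF10B at 95.3 CPM against 84.3 CPM, CYFIP2 at 34.0 CPM against 29.0 CPM and PTCHD4 at 9.20 CPM against 5.51 CPM, all without a call. For the 24 members that rose at day 5, the median log2 difference was -0.01, 0.03, 0.19 and 0.42 on days 1, 2, 3 and 5, and 22 of 24 were smaller at day 3 than at day 5. Because these 24 were picked by their call at day 5, a larger value on that day is favoured by the choice. Across the 35 members Pearson's r of the differences on day 5 was 0.65 with those of day 3, 0.36 with those of day 2 and 0.03 with those of day 1. These are descriptions across genes, which are not independent replicates, and the 3 values share the same day 5 libraries.

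The mean difference of days 1 to 3 was called for DDB2 alone, at 0.33 ± 0.06 (edgeR adjusted p = 0.00038), where 1.74% of genes were called higher and 2.79% lower. Leaving out day 3 removed that call.

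**Figure D2:**
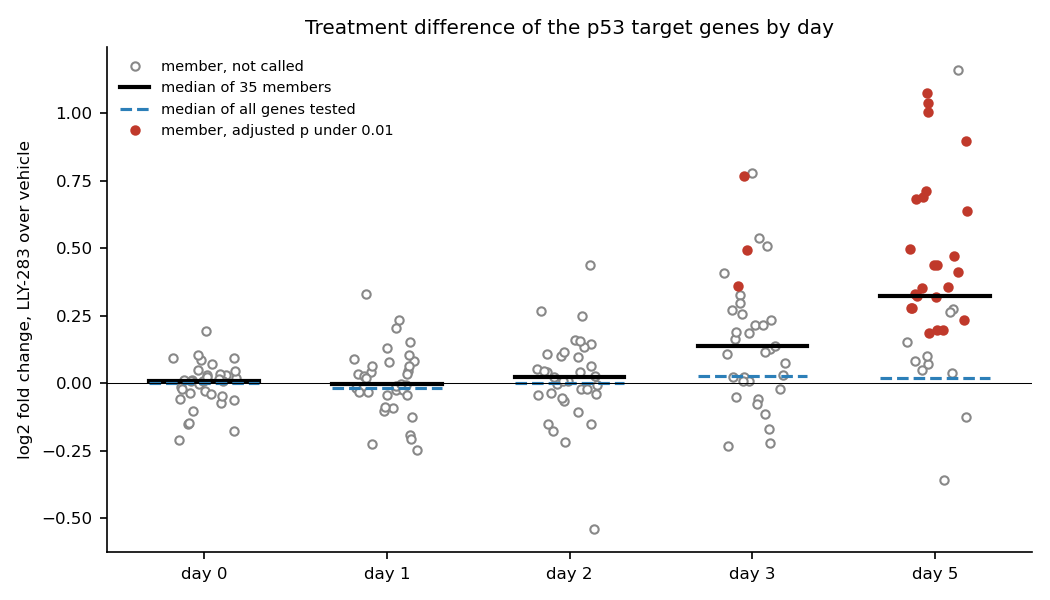
Log2 fold change of LLY-283 over vehicle on days 0, 1, 2, 3 and 5 for each of the 35 tested members (points; sideways spread is for legibility), with the median of the members (solid line) and of all genes tested (dashed line), where filled points are called at an adjusted p under 0.01. The median of the members lies near 0 through day 2, at 0.14 on day 3 and at 0.32 on day 5.

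An interaction of treatment and day compared day 5 with day 0 in the fit of 18 libraries. The difference was larger at day 5 for 18 of 35 members and smaller for 0, where 4.96% of genes were called larger and 8.42% smaller. DDB2 (0.95), PLK2 (0.91), EDA2R (0.91), PHLDA3 (0.90) and PTCHD4 (1.09) changed most among those called, and CDKN1A changed by 0.46 ± 0.05 (edgeR adjusted p = 3.18e-07). DESeq2 called 16. With the day 7 libraries in the fit, 0 were called. The shares of all genes in these other fits are not given here.

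The members also moved in culture without the drug, and not all in one direction. In vehicle, 10 of 35 members rose from day 0 to day 5 and 7 fell, where 20.4% of genes were called higher and 12.6% lower. In LLY-283, 26 rose and 4 fell, where 19% of genes were called higher and 15.4% lower. Scaling by library size alone gave 8 higher and 12 lower in vehicle, and DESeq2 size factors gave 9 and 10. BTG2, CCNG1, APAF1, POLH, SESN1, SESN2, TIGAR, GDF15, NINJ1 and FBXO22 rose in both treatments. A further 15 members were called higher in LLY-283 and not in vehicle, and of these DDB2, ZMAT3, PLK2, EDA2R, PHLDA3, CYFIP2, SPATA18, BAX, TNFRSF10B and RRM2B were also called in the test between treatments. The shares of all genes in these joint classes were not counted, so the 10 and the 15 are descriptions of the members alone.

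CDKN1A fell steeply in both treatments. At day 0 it was at 388, 381 and 379 CPM in the libraries labelled LLY-283 and 359.7, 389 and 381 CPM in vehicle. A day later it stood at 226 CPM in LLY-283 and 217 CPM in vehicle, and on the next day at 167 and 160.1 CPM. After the low of day 3, CDKN1A was back at a mean of 230.4 CPM in LLY-283 on day 5, with vehicle at 166 CPM. From day 0 to day 5 it fell by 1.17 on the log2 scale in vehicle (edgeR adjusted p = 5.49e-20) and fell by 0.71 in LLY-283 (edgeR adjusted p = 1.05e-15), so the treated cells at day 5 held more CDKN1A than vehicle cells and less than at day 0.

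DDB2 also dipped, from 48.4 to 54.7 CPM over the 6 libraries of day 0 to 32.4 CPM in LLY-283 and 32.9 CPM in vehicle at day 1. It was at 43.7 and 36.96 CPM on day 2. The LLY-283 library of day 3, at 60.2 CPM, lay above all 6 libraries of day 0, whereas the vehicle libraries of day 5 reached 45.8 to 48.8 CPM. Over days 0, 1, 2, 3 and 5 the lowest level fell on day 2 for 14 of 35 members in vehicle and for 19 of 35 in LLY-283. Days 1 to 3 are 1 library each, set against means of 3, so a low there can be that of a single library. The LLY-283 library of day 2 was among the 3 high in FN1, and the share over all genes was not counted. BTG2 went the other way in both treatments: it was at 111 to 118 CPM over the 6 libraries of day 0 and at 236 CPM in LLY-283 and 255 CPM in vehicle at day 1.

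**Figure D3:**
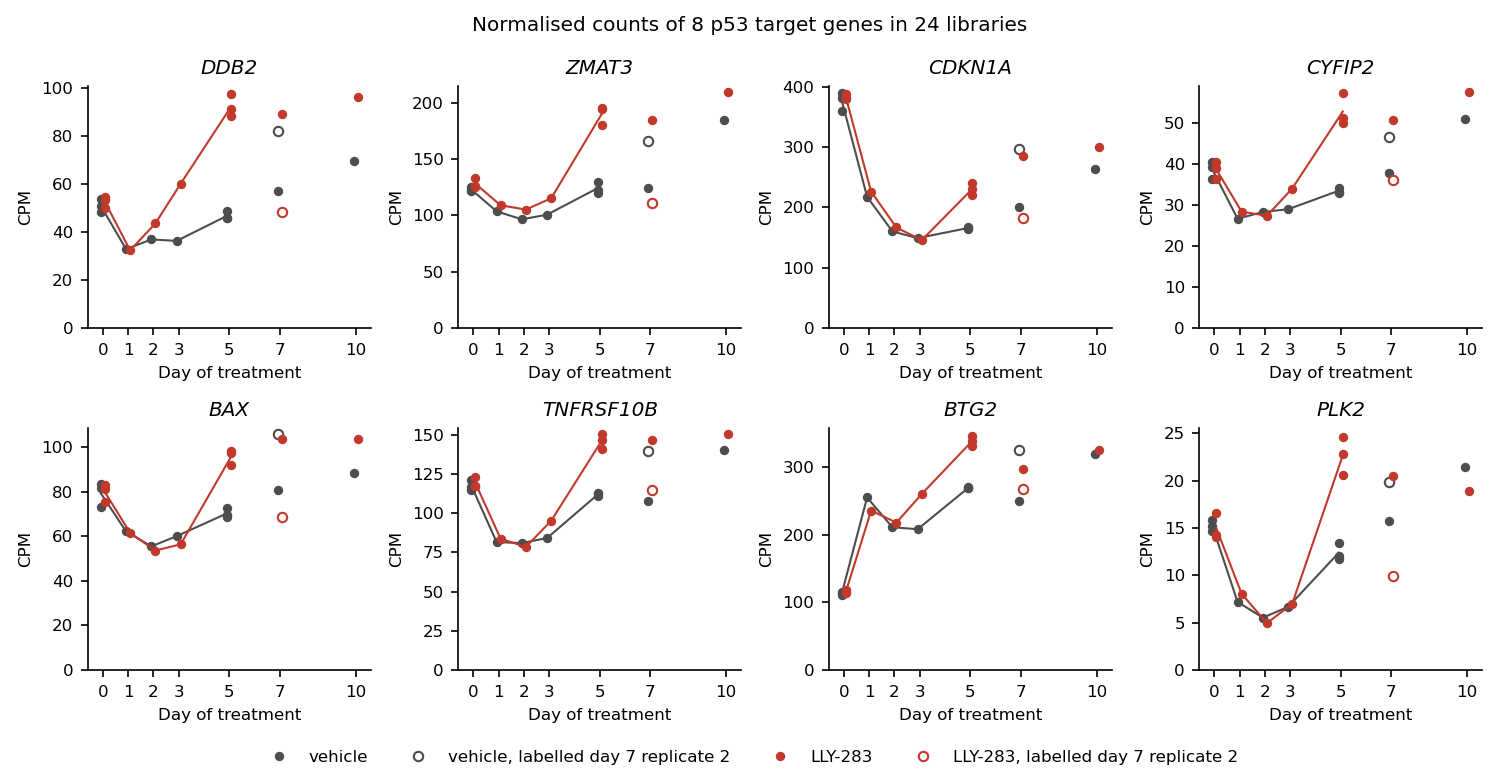
CPM of the 8 members of smallest p at day 5 in all 24 libraries by day of treatment, where points are libraries, lines join the group means of days 0 to 5, and open points are the libraries labelled replicate 2 of day 7. CDKN1A falls from 359.7 to 389 CPM at day 0 to 146 and 149 CPM at day 3 in both treatments before the treatments part.

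FAS and TP53I3 fell in both treatments. FAS was at 70.0 to 75.5 CPM over the 6 libraries of day 0 and fell by 0.56 in vehicle (edgeR adjusted p = 6.46e-11) and by 0.45 in LLY-283 (edgeR adjusted p = 1.89e-09). TP53I3 was at 20.4 to 23.5 CPM at day 0 and fell by 0.89 in vehicle (edgeR adjusted p = 3.79e-10) and by 0.97 in LLY-283 (edgeR adjusted p = 3.36e-11). For neither gene was the change called different between the treatments (edgeR adjusted p = 0.247 for FAS and 0.686 for TP53I3 in the test of the difference).

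FDXR, ASCC3 and TRIM22 fell in vehicle alone by call. FDXR, at 12.6 to 15.5 CPM over day 0, fell by 0.75 in vehicle (edgeR adjusted p = 1.94e-07), stood at -0.16 in LLY-283 and differed between treatments (edgeR adjusted p = 0.00159). ASCC3, at 109 to 116 CPM over day 0, fell by 0.26 in vehicle (edgeR adjusted p = 6.13e-06), but the difference between treatments missed the threshold (edgeR adjusted p = 0.0864), as it did for TRIM22 (edgeR adjusted p = 0.0294), which lay at 2.86 to 4.53 CPM over day 0. PTCHD4 moved in opposite directions: from 13.8 to 16.6 CPM over day 0 it fell by 0.78 in vehicle (edgeR adjusted p = 1.43e-06) and rose by 0.31 in LLY-283 (edgeR adjusted p = 0.00918). ACER2 was called lower in LLY-283, at -0.94 ± 0.28 (edgeR adjusted p = 0.00688), and stood at -0.48 ± 0.28 in vehicle without a call.

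**Figure D4:**
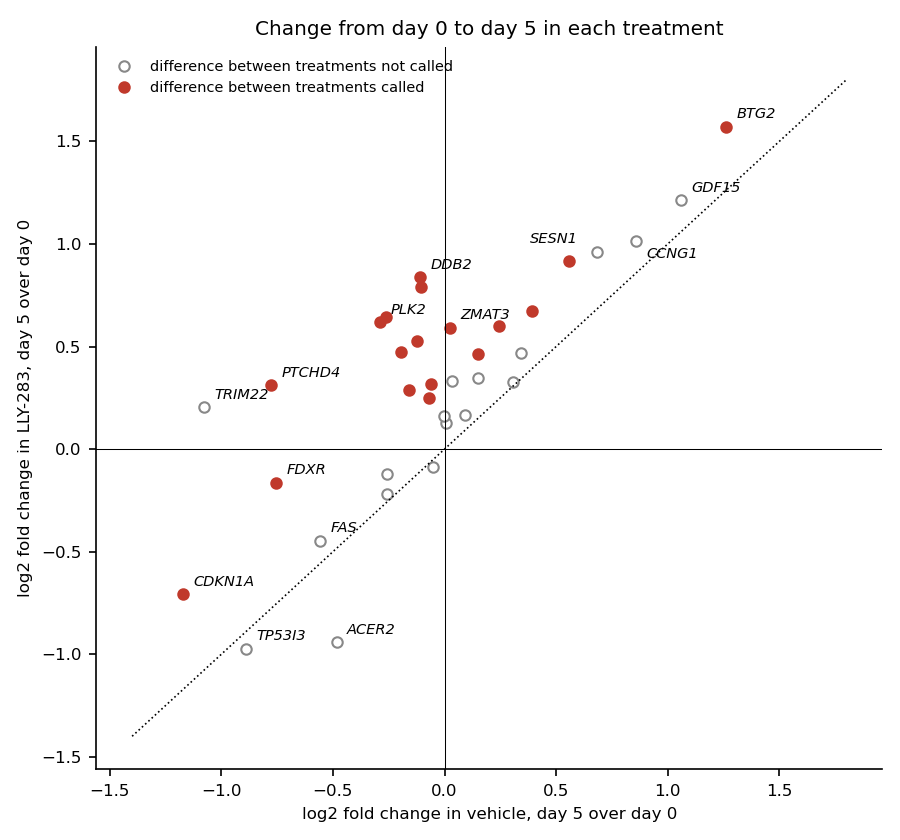
Log2 fold change from day 0 to day 5 in vehicle (horizontal axis) and in LLY-283 (vertical axis) for the 35 tested members, with the line of equal change dotted. The filled points are the 18 members whose change differed between treatments at an adjusted p under 0.01 and all lie above the dotted line, CDKN1A sits at -1.17 and -0.71, and BTG2 at 1.26 and 1.57.

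At day 7, 0 of 35 members and 0% of 16826 genes were called in either direction by label with edgeR. DESeq2 called 0 members, and 0 had an unadjusted p under 0.05, which 1.40% of all genes had. CDKN1A was at 286 CPM in the library labelled LLY-283 replicate 1 and 182 CPM in the library labelled LLY-283 replicate 2, and at 201 and 297 CPM in those labelled vehicle replicate 1 and 2. DDB2 was at 89.1, 48.5, 57.0 and 82.0 CPM in the same order, and ZMAT3 at 185, 111, 124 and 166 CPM. In each of these genes the library labelled LLY-283 replicate 2 was the lowest of the 4. Between the libraries labelled replicate 1, 31 of 35 members were higher in LLY-283, where 47.01% of 16491 genes were. The median log2 difference of this pair was 0.25 over the members and -0.016 over all genes. Between those labelled replicate 2, 4 of 35 members were higher in LLY-283, where 48.52% of all genes were. The median of that pair was -0.33 over the members and -0.0079 over all genes. On a scale of the other genes called at day 5, where the mean of the vehicle libraries of day 5 is 0% and that of LLY-283 100%, the libraries labelled LLY-283 lay at 72.6% and -8.66% and those labelled vehicle at -3.88% and 46.6%. The libraries of day 0 lay at 17.3% to 32.8%, so the scale is not one of treatment alone. The labels were kept as given, and no treatment effect at day 7 is drawn from them.

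At day 10, with 1 library per treatment and no replicate check, 28 of 35 members were higher in LLY-283, with a median log2 difference of 0.12 where 49.4% of all genes were higher. DDB2 was at 96.5 CPM in LLY-283 and 69.5 CPM in vehicle, CDKN1A at 299 and 263 CPM, and PLK2 at 18.9 and 21.4 CPM. GDF15 was at 33.9 CPM in LLY-283 and 99.6 CPM in vehicle, the lowest difference of any member that day and well above the 9.33 to 12.7 CPM of the 6 libraries of day 5. On the scale above the vehicle library of day 10 lay at 60.9%.

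Of 16 regulators of p53, 3 rose at day 5 (18.8%, against 12% of all genes), 2 fell (12.5%, against 14.1%) and 11 were not called, shares near those of all genes. MDM2, the ubiquitin ligase that degrades p53 and is induced by it, was at 157 ± 7.27 CPM in LLY-283 and 135 ± 4.57 CPM in vehicle (SD, n = 3 each), a rise of 0.25 ± 0.04 (edgeR adjusted p = 1.21e-05). MDM4, its partner that masks the p53 activation domain, rose by 0.19 (edgeR adjusted p = 0.000775), and ATM, the kinase that signals DNA breaks, by 0.35 (edgeR adjusted p = 1.46e-06). The checkpoint kinases CHEK1 and CHEK2 fell, by 0.27 and 0.34 on the log2 scale. At day 3, with 1 library per treatment, ATM (0.47) and the damage adaptor TP53BP1 (0.25, and 0.11 without a call at day 5) were called higher. CHEK2 (-0.42) was called lower, and MDM2 stood at -0.02. These calls were 12.5% higher, against 2.72% of all genes, and 6.25% lower, against 2.65%. For the mean of days 1 to 3, ATM and MDM4 were called higher (12.5%, against 1.74% of all genes) and CHEK2 lower (6.25%, against 2.79%). These counts are per gene and hold no information on MDM4 splice forms.

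Of 12 genes for mitosis that p21 is known to lower through the DREAM repressor complex, 11 fell at day 5, where 14.1% of all genes fell, and 0 rose, with CDC25C at -0.45 and not called. These 12 were listed from general knowledge, but with earlier results of these data known, so their share is a description. TOP2A, the DNA topoisomerase of dividing cells, fell by 0.51 (edgeR adjusted p = 3.77e-11) and the mitotic kinase PLK1 fell by 0.37 (edgeR adjusted p = 3.68e-08). At day 3, with 1 library per treatment, 7 of the 12 were called lower, where 2.65% of all genes were. PLK1 stood at -0.48 and CDKN1A RNA at 0.01 ± 0.07. The part of p21 in these differences was not tested. The same 12 genes had all risen from day 0 to day 5, in vehicle with a median of 0.85 and in LLY-283 with a median of 0.57, where 20.4% and 19% of all genes were called higher.

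Markers of other cell types were read beside these results. Of 15 fibroblast markers 14 were tested at day 5, of which 4 were called higher (28.6%, against 12% of all genes) and 0 lower (against 14.1%). Only 6 of the 14 were above 0, and the median log2 fold change was -0.08, with a range of -3.94 to 1.70. The summed level of the 15 markers was 449.5 to 465 CPM in LLY-283 and 341, 348 and 517 CPM in vehicle replicates 1, 2 and 3. THY1, ACTA2, POSTN and COL5A1 had the highest medians of the list over the 24 libraries, at 137, 63.5, 55.0 and 43.6 CPM. COL3A1 was at 0 counts in 4 of 24 libraries. The part of these markers in the members' differences was not tested. Without vehicle day 5 replicate 3, the library high in FN1 and COL1A1, 23 of 35 members were called higher at day 5. The share of all genes called without that library is not given here. Of the markers of microglia and endothelium, AIF1 was at 0 counts in 22 of 24 libraries, PTPRC in 14 and CDH5 in 13, PECAM1 was at 4.28 CPM or above in all 24, and the summed level of the list was 5.35 to 7.52 CPM in LLY-283 and 4.78 to 6.50 CPM in vehicle at day 5.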

How the data were processed

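RNA of HSJD-DIPG-007 cells was sequenced by the authors as poly(A)-selected, directional paired-end libraries, trimmed and assigned to human transcripts with kallisto. The values that the authors deposited are estimated counts by gene on hg38, not normalized and all whole. The kallisto version, annotation release and strand setting are not given in the sources used here. All 24 libraries were used.

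From these estimated counts, edgeR 4.0.16 in R 4.3.3 was run on all genes with TMM scaling, its filter on low counts by group and day, and quasi-likelihood tests with robust priors. P-values were adjusted after Benjamini and Hochberg. Days 0, 5 and 7 were fitted within their own libraries. Days 1, 2 and 3, their mean, and the changes between days 0 and 5 came from a fit of 18 libraries with a mean per group and day, in which the lone libraries of days 1 to 3 are assumed to vary like those of days 0 and 5. An SE is the log2 fold change divided by the square root of its F. Levels are CPM after TMM scaling of all 24 libraries. Differences of single libraries were log2 ratios with 0.5 CPM added. DESeq2 1.42.0 was an alternative.

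The test was checked on simulated counts. With a log2 change of 1, 75% of altered genes were recovered at day 5 among 16491 genes, and with a change of 0.5, 52%. For day 3 in the shared fit it recovered 55% and 26%, among 20642 genes. False calls among the unaltered genes numbered 5 at day 5 and 1 at day 3. The altered genes were drawn from all genes tested, so these shares are not those of the members. Each simulation altered 200 genes, whereas the data had 1987 genes called higher and 2317 lower at day 5, and 561 and 548 at day 3. With fewer altered genes the adjusted p is harder to pass, so the shares recovered do not carry over to the data. Gene positions and canonical starts came from GENCODE v44 on GRCh38.

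The members, their roles and the other lists were chosen from general knowledge, with earlier results of these data known. All members are accounted for, and per-library values with tests are given for the 8 of smallest p at day 5, CDKN1A, and those called lower in any comparison. Alternatives were DESeq2, its size factors, scaling by library size alone, testing without the filter, a minimum of 10 counts per library, an adjusted p under 0.05, a replicate block, other sets of libraries and leaving out each library. Leaving out the 2 libraries of days 0 to 5 that were high in FN1 and COL1A1 was added after the values were seen. The values of 1 gene of the regulator list are not reported here.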

Additional observations from a re-analysis of the deposited data

Results flagged for a closer look

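The treatment difference at day 5 differed from that at day 0 for 18 members, by the interaction test of edgeR over 18 libraries (adjusted p under 0.01), and all 18 differences were positive. On the log2 scale the arrest genes PLK2, ZMAT3, CDKN1A and BTG2 changed by 0.91, 0.57, 0.46 and 0.31. The death genes EDA2R, PHLDA3, CYFIP2, BAX and TNFRSF10B changed by 0.91, 0.90, 0.67, 0.45 and 0.38. The repair genes DDB2, POLH and RRM2B changed by 0.95, 0.36 and 0.32. SPATA18, FDXR, SESN2 and TIGAR, of metabolism and stress, changed by 0.65, 0.59, 0.36 and 0.31, and PTCHD4 and NINJ1 by 1.09 and 0.28. No group held 4 or more libraries, so no search for single outlying libraries within a group was made.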

How the results depend on the processing

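Counts below are of 35 tested members unless another number is given. The shares of all genes called in the same fits are not given beside them, so they describe the members alone. Leaving out each library of day 5 in turn gave 21 to 25 members higher at day 5. Leaving out each library of days 0 and 5 from the fit of 18 libraries gave 15 to 19 in the test of day 5 against day 0. Over time it gave 9 to 10 higher and 6 to 9 lower in vehicle, and 21 to 26 higher and 3 to 4 lower in LLY-283. The same fits gave 3 to 4 members at day 3 and 1 to 1 for the mean of days 1 to 3. The lone libraries of days 1 to 3 stayed in all these fits. The counts for those days thus vary only the spread taken from days 0 and 5, and cannot show whether the early differences hold in other libraries. With all 22 libraries of days 0 to 7 in the fit, those in doubt at day 7 included, 9 members were higher at day 5, 0 at day 3, 0 for the mean of days 1 to 3, 0 in the test of day 5 against day 0, and 14 over time in LLY-283. At an adjusted p under 0.05, 3 members were higher for the mean of days 1 to 3, 7 were higher at day 3, and 11 were lower over time in vehicle. The mean of days 1 to 3 gave 3 members with library size alone, 2 with at least 10 counts in every library, 0 in an additive fit of the 6 libraries of days 1 to 3, 2 without day 1 and 0 without day 3. Members lower over time in vehicle numbered 12 with library size alone and 13 with at least 10 counts in every library. Without a filter 1 of 37 members, GADD45A, was higher at day 0. PLK3 at day 5 ranged from -0.030 to 0.138 over the fits with 1 library left out, and it changed sign without vehicle replicate 2 (-0.030) or replicate 3 (-0.013). Of the 24 members called at day 5, 9 were called in every alternative, and 14 of the 29 lost calls came from settings other than the 22 libraries. With library size alone the genes called higher and lower were 1443 and 1219 in the test of day 5 against day 0, where TMM gave 1024 and 1739, and 3122 and 3683 over time in vehicle, where TMM gave 4211 and 2608. For the mean of days 1 to 3 the split was 526 and 490 against 359 and 575, and DESeq2 size factors gave 487 and 716 at day 3 against 561 and 548. The causes of these shifts were not tested. The replicate numbers did not pair the libraries: the correlation of same-numbered deviations lay between -0.05 and 0.01 over 6 pairs, and the replicate block left 24 members higher at day 5 and gave 19 in the test of day 5 against day 0 over 12 libraries, where the same fit without the block gave 20. Depth limits ACER2 and TRIM22, and leaves PMAIP1 and TP53INP1 untested except without a filter.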
